A study of Drosophila melanogaster with 17 samples.

Results

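p53, Corp and Rchy1 are 3 fly genes tied, in flies or in mammals, to the DNA damage response. Their levels were followed here in eye imaginal discs of Drosophila larvae after gamma radiation and after loss of E2F function. The 3 genes were chosen by name among the 11982 genes that have a probe set with 1 gene symbol on the array. The choice was made with earlier results of these data known, and 4 of the 18769 probe sets tested cover these genes. The groups were dDP mutant discs irradiated (n = 3) and untreated (n = 3), discs with de2f1 deleted in the posterior irradiated (n = 3) and untreated (n = 3), and wild type discs irradiated (n = 2) and untreated (n = 3). Irradiated discs received 40 Gy of gamma radiation and were dissected 4 h later, and larvae of every group were raised at 25 °C. Replicate 2 of irradiated wild type discs was not analysed here. The dDP allele and the means of deleting de2f1 are not given in the labels, and the deletion leaves the anterior of the disc with its gene. RNA came from eye discs in bulk, so fewer cells that make a transcript and less of it per cell cannot be told apart in any result below.

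p53 is a transcription factor that damage-activated kinases switch on, and in flies it turns on genes of cell death and DNA repair. Corp is a fly protein with a motif like that of Mdm2. It binds p53 and lowers its amount, and its gene is itself a p53 target. Rchy1 is the fly relative of mammalian Pirh2, a RING ubiquitin ligase which in mammals marks p53 for degradation and whose gene responds to p53 there. Dp is the partner that E2F factors need to bind DNA, and E2f1 is the activating E2F of the fly. The 3 genes therefore hold a transcription factor and 2 proteins known, in flies or in mammals, to act on it.

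Each value below is an RMA value, a background-corrected and normalized summary of the probes of 1 probe set on the log2 scale, so a difference of 1 stands for a 2-fold change. A difference was called when its limma adjusted p (Benjamini-Hochberg over all 18769 probe sets of the comparison) was under 0.05, and ± after a difference is its standard error. Corp lies on the X chromosome, Rchy1 on chromosome arm 2L and p53 on arm 3R in the RefSeq annotation, which lists 2 transcripts each for Corp and Rchy1 and 4 for p53. The sources used here do not say which transcripts the probes match. Corp and Rchy1 have 1 probe set each. p53 has a pair of them: 1625134_at, with a mean of 9.88 over all arrays, and 1630028_at, with a mean of 3.97. The dimmer one read 3.81 to 4.11 on all 17 arrays, below the lower quartile of every array (4.51 to 4.60), and is described apart.

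The arrays differed in ways beyond their labels. Dp itself averaged 8.61 ± 0.33 and 8.42 ± 0.46 in irradiated and untreated dDP discs, 10.20 ± 0.09 and 10.42 ± 0.11 in de2f1 discs and 10.14 ± 0.13 and 10.39 ± 0.03 in wild type discs (SD). These dDP levels were below those of wild type discs by -1.53 ± 0.21 and -1.96 ± 0.19 (limma adjusted p = 9.26e-05 and 2.49e-06). The probe set of E2f1 also matches Torsin and was not used. Eye disc markers (9 of 10 measured) averaged 10.12 to 10.44 on every array. Salivary gland markers (8 of 8 measured) averaged 6.45 to 13.05 on irradiated and 5.72 to 6.04 on untreated dDP arrays, 10.53 to 12.63 on irradiated and 6.43 to 12.85 on untreated de2f1 arrays, and 11.07 to 12.24 on irradiated and 10.08 to 12.61 on untreated wild type arrays. Fat body markers (3 of 6 measured) averaged 13.42 on untreated dDP array 1 and 5.99 to 12.23 on the other arrays. Markers of hemocytes (6 of 6 measured) averaged 6.65 to 7.67 on dDP arrays, against 7.91 to 9.34 on de2f1 and wild type arrays, those of the ring gland (5 of 5) 6.55 to 8.04 against 8.22 to 9.35, and those of glia (3 of 3) 9.94 to 10.19 against 10.38 to 10.77. The part of these 3 marker sets in the dDP differences was not tested. The actin control probe sets read higher at the 3-prime than at the 5-prime end by 3.05 and 3.26 on untreated dDP arrays 2 and 3, against 1.69 to 2.28 on all other arrays.

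p53 rose after irradiation in discs of each genotype. Its probe set read 9.91, 10.42 and 10.04 on the irradiated dDP arrays, against 9.27, 9.82 and 9.75 on the untreated ones. In de2f1 discs it read 10.34, 10.49 and 10.43 after irradiation, against 9.56, 9.43 and 9.57 without it. In wild type discs the values were 10.35 and 10.33 after irradiation, against 9.52, 9.35 and 9.43 without it. Irradiated and untreated arrays of 1 genotype did not overlap, but in dDP discs the lowest irradiated array lay only 0.09 above the highest untreated one. The difference was 0.51 ± 0.14 in dDP discs (1.42-fold, limma adjusted p = 0.0325), 0.90 ± 0.14 in de2f1 discs (1.87-fold, adjusted p = 0.00177) and 0.91 ± 0.15 in wild type discs (1.88-fold, adjusted p = 0.00231).

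The rise of p53 in dDP discs lay between 0.34 and 0.62 without any 1 array, but its call was lost in some of these fits. It was not called without untreated dDP array 1 (0.34, limma adjusted p = 0.0545), irradiated dDP array 2 (0.36, adjusted p = 0.124) or irradiated dDP array 3 (0.55, adjusted p = 0.0557). It was also lost with array weights (0.31, adjusted p = 0.0506), when the 6 dDP arrays were fitted alone (adjusted p = 0.287) and with the salivary gland markers as a covariate (0.46, adjusted p = 0.2). Without untreated dDP arrays 2 and 3 it was 0.85 (adjusted p = 0.00478), and it reached 0.74 when the actin difference entered the fit (adjusted p = 0.00496). It was called in 22 of 29 alternatives on this probe set, with adjusted p from 0.00478 to 0.287. In de2f1 and wild type discs the rise was called in 29 of 29 such alternatives.

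Genotype did not move the p53 level by an amount the test called. Untreated dDP discs differed from untreated wild type discs by 0.18 (95% interval -0.11 to 0.47, limma adjusted p = 0.386), and untreated de2f1 discs by 0.09 (-0.20 to 0.38, adjusted p = 0.801). The sign of the dDP difference turned when the actin difference entered the fit (-0.051, adjusted p = 0.843) and without untreated dDP arrays 2 and 3 (-0.16, adjusted p = 0.518). After irradiation the dDP difference was -0.22 (-0.55 to 0.11, adjusted p = 0.361) and the de2f1 difference 0.08 (-0.25 to 0.41, adjusted p = 0.859). The means ran, from high to low, irradiated de2f1 (10.42), irradiated wild type (10.34), irradiated dDP (10.12), untreated dDP (9.61), untreated de2f1 (9.52) and untreated wild type (9.43). No neighbours within the irradiated 3 or within the untreated 3 differed by a called amount. The smaller rise in dDP discs was not called as a difference of effects: it was -0.40 ± 0.20 relative to wild type (adjusted p = 0.569) and -0.39 ± 0.19 relative to de2f1 (adjusted p = 0.489). Without untreated dDP array 1, the untreated dDP level was called higher than wild type (0.35, adjusted p = 0.0325) and the effect smaller than in de2f1 discs (-0.56, adjusted p = 0.0473). Without untreated dDP array 1 or irradiated dDP array 2, the irradiated dDP level was called lower than the irradiated de2f1 level (-0.30 and -0.45, adjusted p = 0.0424 and 0.0248), against -0.30 and adjusted p = 0.127 with all arrays.

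The dimmer p53 probe set showed no called change. It averaged 3.98 ± 0.05 and 3.87 ± 0.07 in irradiated and untreated dDP discs, 3.98 ± 0.07 and 3.98 ± 0.06 in de2f1 discs, and 4.08 ± 0.04 and 3.98 ± 0.04 in wild type discs (SD). Its irradiation differences were 0.11, 1.9e-04 and 0.10 in dDP, de2f1 and wild type discs (limma adjusted p = 0.249, 1 and 0.546). In the RefSeq gene order p53 overlaps the taste receptor gene Gr94a and an antisense RNA gene. Gr94a averaged 4.42 over all arrays and its irradiation differences were 0.09, 0.10 and -0.06 in dDP, de2f1 and wild type discs (adjusted p of 0.668 to 0.924). Of the next genes on the chromosome, CG17121 fell by -0.27 in dDP discs (adjusted p = 0.0273), opposite to p53, with -0.25 and -0.23 in de2f1 and wild type discs (adjusted p = 0.104 and 0.146). In untreated discs CG17121 was higher in dDP than in wild type by 0.67 (adjusted p = 5.33e-06). Ctns had no called irradiation change (adjusted p of 0.356 to 0.997) and was lower in untreated dDP and de2f1 than in wild type discs by -0.89 and -0.65 (adjusted p = 9.25e-04 and 0.0231).

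**Figure D1:**
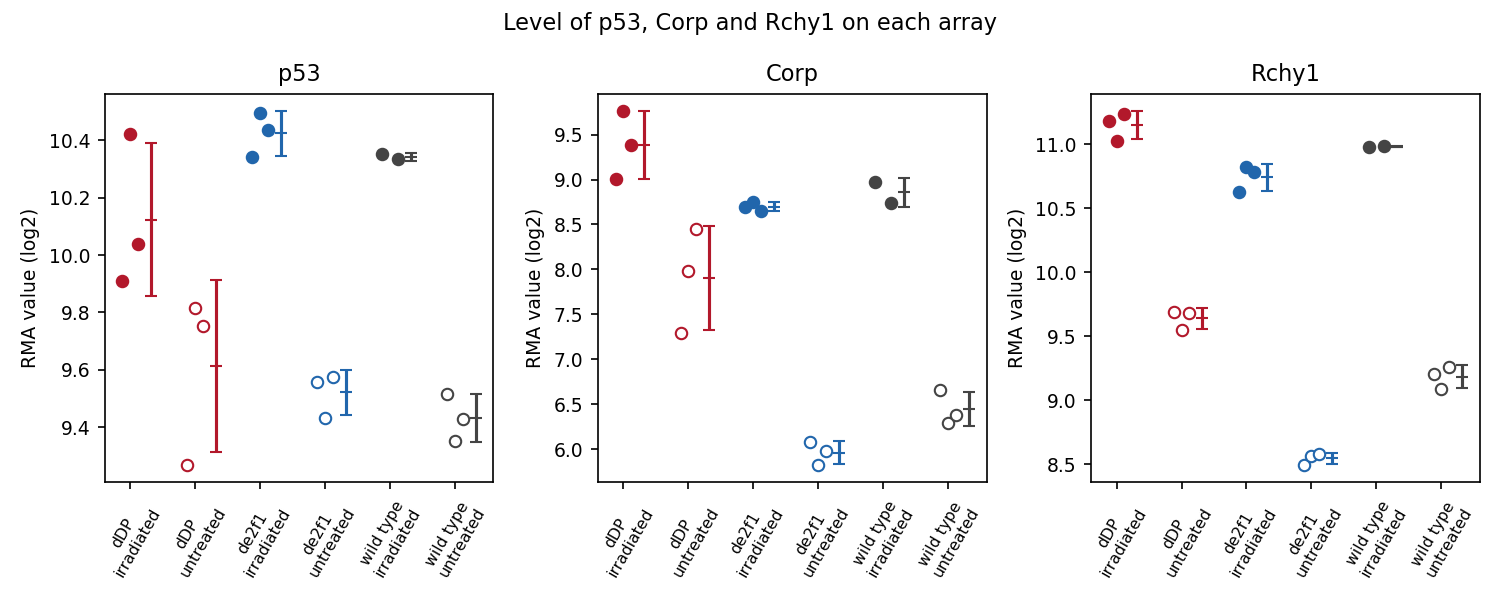
RMA values (log2, vertical axes) of the brighter p53 probe set, Corp and Rchy1 on each of the 17 arrays, filled points for irradiated and open points for untreated discs, with the mean and SD of each group drawn beside its points. Irradiated arrays lie above untreated arrays of the same genotype in all panels, and the untreated dDP arrays of Corp (7.29 to 8.45) lie above the untreated wild type arrays (6.29 to 6.66).

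Corp, the p53 inhibitor, rose after irradiation in discs of all genotypes. It read 9.01, 9.76 and 9.39 on the irradiated dDP arrays, against 7.29, 7.98 and 8.45 on the untreated ones. In de2f1 discs it read 8.69, 8.75 and 8.65 after irradiation, against 6.08, 5.83 and 5.98 without it. In wild type discs it read 8.97 and 8.74 after irradiation, against 6.66, 6.29 and 6.38 without it. The groups did not overlap in any genotype, with gaps of 0.56, 2.58 and 2.09 between the lowest irradiated and the highest untreated array of dDP, de2f1 and wild type discs. The rise was 1.48 ± 0.23 in dDP (2.78-fold, limma adjusted p = 0.00127), 2.74 ± 0.23 in de2f1 (6.66-fold, adjusted p = 1.24e-05) and 2.41 ± 0.26 in wild type discs (5.33-fold, adjusted p = 4.66e-05). By size it ranked 59 among the rises of all 18769 probe sets in dDP discs, and 10 in both de2f1 and wild type discs. The rise in dDP discs was not called with the 6 dDP arrays fitted alone (1.48, adjusted p = 0.101).

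Untreated dDP discs already carried more Corp. Their mean of 7.91 ± 0.58 stood 1.46 ± 0.23 above the 6.44 ± 0.19 of untreated wild type discs (SD, n = 3 each), a 2.76-fold difference (limma adjusted p = 2.7e-04), and 1.95 ± 0.23 above the 5.96 ± 0.12 of untreated de2f1 discs (adjusted p = 3.41e-05). Every untreated dDP array read higher than every untreated wild type and de2f1 array, and each read lower than every irradiated array of any genotype. Untreated de2f1 discs differed from untreated wild type discs by -0.48 without overlap, which was not called (95% interval -0.98 to 0.02, adjusted p = 0.272).

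The 3 untreated dDP arrays did not give the same Corp level. Array 1, with fat body markers at 13.42 and an actin difference of 1.90, read 7.29. Arrays 2 and 3, with actin differences of 3.05 and 3.26, read 7.98 and 8.45. Relative to untreated wild type discs the Corp difference was 0.85 (limma adjusted p = 0.0163) with array 1 alone and 1.77 (adjusted p = 1.22e-05) without it. Adjusted for the actin difference it was 0.98 (adjusted p = 0.00173), for the salivary gland markers 1.57 (adjusted p = 0.00413) and for the fat body markers 1.71 (adjusted p = 1.44e-04). The untreated dDP level of Corp was thus called higher in each of these fits, and in 29 of 29 alternatives. The rise of Corp after irradiation in dDP discs moved the opposite way, to 2.09 (adjusted p = 1.52e-04) with untreated array 1 alone, 1.97 (adjusted p = 4.07e-05) adjusted for the actin difference and 1.17 (adjusted p = 8.99e-04) without untreated array 1.

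**Figure D2:**
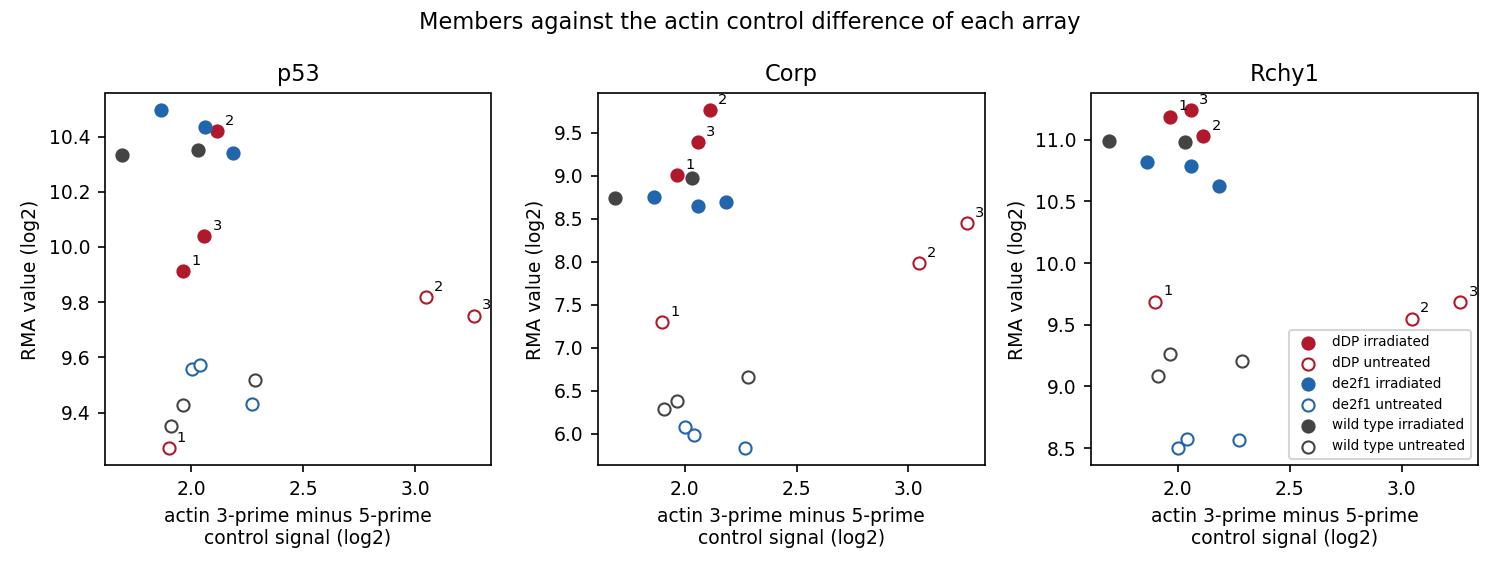
RMA values (log2, vertical axes) of the 3 genes against the difference between the 3-prime and 5-prime actin control signals of the same array (log2, horizontal axis), filled points for irradiated and open points for untreated discs, with the dDP arrays numbered. Untreated dDP arrays 2 and 3 stand to the right at 3.05 and 3.26, where Corp read 7.98 and 8.45 and Rchy1 read 9.55 and 9.68, close to the 9.69 of array 1.

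In irradiated discs the genotypes lay closer for Corp. Irradiated dDP discs averaged 9.38 ± 0.38, irradiated de2f1 discs 8.70 ± 0.05 and irradiated wild type discs 8.86 ± 0.16 (SD). The dDP difference from wild type was 0.53 (95% interval -0.03 to 1.09, limma adjusted p = 0.18), and it was called without untreated dDP arrays 2 and 3 (0.53, adjusted p = 0.0464). Relative to de2f1 discs it was 0.69 ± 0.23 (adjusted p = 0.0446). That call held in 12 of 29 alternatives, with adjusted p from 0.00418 to 0.179. Among single arrays it was lost without any 1 of the de2f1 arrays, either irradiated wild type array, untreated wild type array 2 or 3, untreated dDP array 2, or irradiated dDP array 2 or 3. The value without 1 array lay between 0.50 (irradiated dDP array 2) and 0.87. The irradiation effect of Corp in dDP discs was smaller than in wild type by -0.94 ± 0.35 (adjusted p = 0.443) and than in de2f1 by -1.26 ± 0.33 (adjusted p = 0.206), neither of which was called. Both were called without untreated dDP array 1 (-1.24 and -1.57, adjusted p = 0.0254 and 0.00564).

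Corp overlaps CG1632 in the RefSeq gene order. CG1632 did not follow it: the irradiation differences of CG1632 were -0.0090, -0.02 and -0.0048 in dDP, de2f1 and wild type discs (limma adjusted p of 0.961 to 0.998), and it was lower in untreated dDP than in untreated wild type discs by -0.24 (adjusted p = 0.0246). The next genes on the chromosome, ND-75 and CG15343, had no called irradiation change either (adjusted p of 0.091 to 0.998, the lowest for CG15343 in dDP discs at 0.68). These neighbours were chosen by position after the members' values were seen.

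Rchy1, the ubiquitin ligase gene, rose after irradiation in every genotype. It read 11.19, 11.03 and 11.24 on the irradiated dDP arrays, against 9.69, 9.55 and 9.68 on the untreated ones. In de2f1 discs it read 10.62, 10.82 and 10.78 after irradiation, against 8.50, 8.56 and 8.58 without it. In wild type discs it read 10.98 and 10.99 after irradiation, against 9.20, 9.09 and 9.26 without it. All irradiated arrays read higher than all untreated arrays, whatever the genotype. The rise was 1.51 ± 0.07 in dDP (2.85-fold, limma adjusted p = 1.3e-07), 2.20 ± 0.07 in de2f1 (4.58-fold, adjusted p = 8.93e-10) and 1.80 ± 0.08 in wild type discs (3.48-fold, adjusted p = 2.85e-08). It was called in 29 of 29 alternatives in each genotype.

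The untreated level of Rchy1 differed between genotypes in opposite directions. Untreated dDP discs averaged 9.64 ± 0.08 and untreated de2f1 discs 8.55 ± 0.04, against 9.19 ± 0.09 in untreated wild type discs (SD, n = 3 each). The dDP level was higher than wild type by 0.45 ± 0.07 (limma adjusted p = 2.02e-04), and the de2f1 level was lower by -0.64 ± 0.07 (adjusted p = 3.59e-05). Between dDP and de2f1 discs the difference was 1.09 ± 0.07 (adjusted p = 7.73e-08). None of these untreated groups overlapped, and all 3 calls held in 29 of 29 alternatives. With untreated dDP array 1 left out or not, the dDP level relative to wild type stayed within 0.41 to 0.50 over all fits that left out 1 array.

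After irradiation the genotypes kept their order for Rchy1 with smaller differences. The dDP level was higher than wild type by 0.17 (95% interval -0.0011 to 0.34, limma adjusted p = 0.154) and the de2f1 level lower by -0.24 (-0.41 to -0.07, adjusted p = 0.0797), neither called, though the arrays did not overlap. The dDP level stood 0.41 ± 0.07 above the de2f1 level (adjusted p = 6.41e-04). The irradiation effect was -0.69 ± 0.10 smaller in dDP than in de2f1 discs (adjusted p = 0.0117). This was the one called difference of irradiation effects among the 3 genes, and it was lost without untreated de2f1 array 1 (-0.66, adjusted p = 0.0509), with the 12 dDP and de2f1 arrays fitted alone (adjusted p = 0.0521) and with the salivary gland markers as a covariate (-0.68, adjusted p = 0.0553). Relative to wild type the effect differed by -0.29 ± 0.11 in dDP (adjusted p = 0.426) and by 0.40 ± 0.11 in de2f1 discs (adjusted p = 0.589). frj and HemK1, the genes on either side of Rchy1, had no called irradiation change in wild type discs (-0.12 and -0.04, adjusted p = 0.51 and 0.918). In dDP discs, HemK1 fell by -0.34 (adjusted p = 0.0038), opposite to Rchy1. In untreated discs frj was lower in dDP than in wild type by -0.19 (adjusted p = 0.0332).

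**Figure D3:**
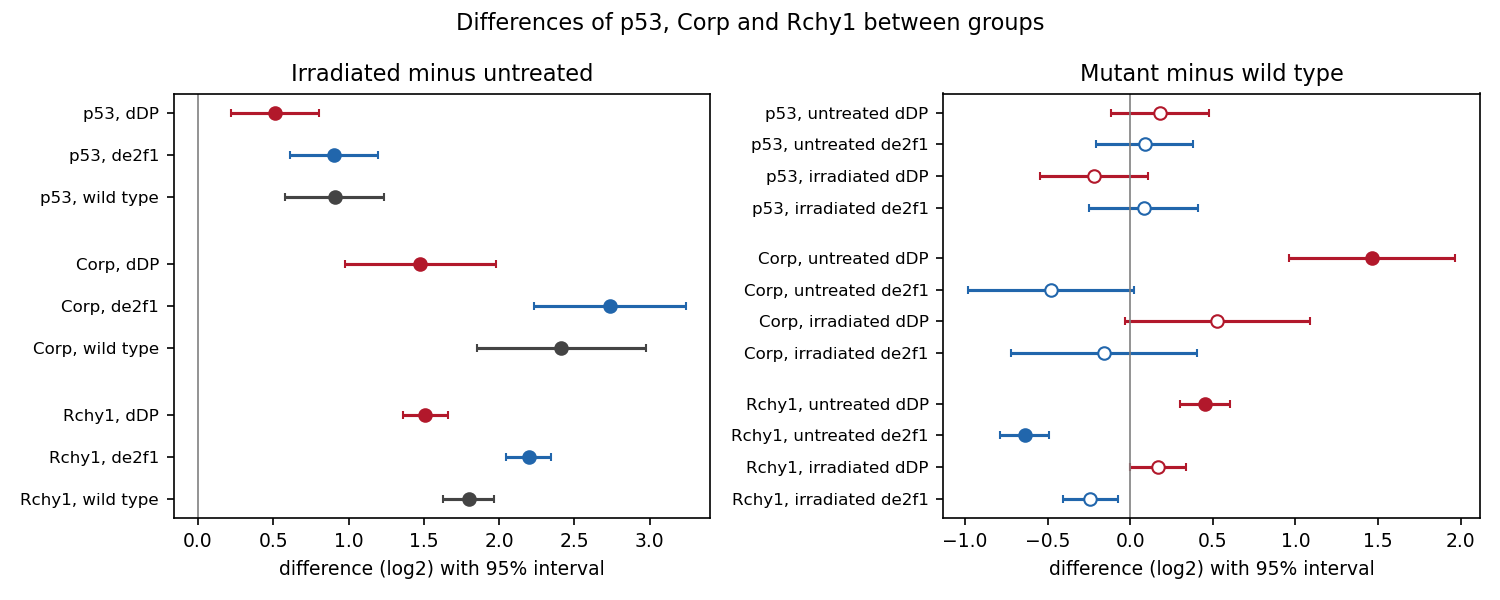
Differences (log2, horizontal axes) with 95% intervals from the limma fit, irradiated minus untreated discs by genotype on the left and mutant minus wild type discs on the right, filled where called. All 9 irradiation differences are filled, from 0.51 (p53, dDP) to 2.74 (Corp, de2f1), and on the right 3 are filled: untreated dDP for Corp (1.46) and Rchy1 (0.45) and untreated de2f1 for Rchy1 (-0.64).

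The 3 genes were chosen with earlier results of these data known, so the shares below describe them and test nothing. All 3 rose after irradiation in each genotype. Over the whole array 4.45% of the probe sets rose in dDP, 1.37% in de2f1 and 2.59% in wild type discs. In all 3 genotypes 1.1% rose. Irradiated arrays lay above all untreated arrays of the genotype for 3 of 3 genes, and for 8.75% of probe sets in dDP, 9.1% in de2f1 and 15.2% in wild type discs. In untreated discs 2 of 3 genes were called higher in dDP than in wild type (12.1% of probe sets) and 1 of 3 lower in de2f1 than in wild type (5.1%). Relative to de2f1, untreated dDP discs had 2 of 3 genes higher (10.4%), as did irradiated dDP discs (11.6%). In irradiated discs limma called 0 of 3 genes between dDP and wild type (23.2% of probe sets changed, and 0 of 3 genes had an unadjusted p under 0.05) and 0 of 3 between de2f1 and wild type (8.63%, and 1 of 3 at an unadjusted p under 0.05). For the irradiation effect, 1 of 3 genes was called smaller in dDP than in de2f1 discs (0.0533% of probe sets), 0 of 3 differed between dDP and wild type (0.202%, 2 of 3 unadjusted) and 0 of 3 between de2f1 and wild type (0.0533%, 1 of 3 unadjusted).

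The means of Corp and Rchy1 ran in the same order, though not every step of it was called. From high to low they were irradiated dDP, irradiated wild type, irradiated de2f1, untreated dDP, untreated wild type and untreated de2f1. For Corp the irradiated de2f1 and wild type arrays overlapped and differed by -0.16 (limma adjusted p = 0.833), and for neither gene was irradiated dDP called against wild type, or irradiated de2f1 against wild type. The Corp step between untreated de2f1 and wild type discs was not called either. Of the 173 genes that rose after irradiation in all genotypes 37 had this order, as had 48 of all 11982 genes. p53 did not, having its lowest irradiated mean in dDP discs.

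The 3 genes also differed in their spread within dDP groups. Corp had an SD of 0.38 in irradiated and 0.58 in untreated dDP discs, which 3.24% and 2.61% of probe sets exceeded. p53 had 0.26 and 0.30 there (6.51% and 8.75%). Rchy1 had 0.11 and 0.08 there (36.4% and 68.5%), near the medians of all probe sets of 0.09 and 0.11. On dDP arrays p53 and Corp were both lowest on untreated array 1 and both highest on irradiated array 2, whereas Rchy1 was lowest among the irradiated dDP arrays on array 2.

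The genes nearest to each member were found by the root mean square difference between their 6 group means, each centred on its own mean, over 11981 other genes. Since they were chosen on these group means, their values are a description, with no test. Nearest to Corp was agt, which codes for an alkyl repair protein, at 0.18, followed by rdog (0.29), Irbp, which codes for a DNA end-binding subunit of Ku (0.32), AOX1, which codes for an aldehyde oxidase (0.34), and Rchy1 itself (0.38). agt averaged 11.57 ± 0.17 in irradiated and 9.80 ± 0.19 in untreated dDP discs, 10.47 ± 0.11 and 7.71 ± 0.11 in de2f1 discs, and 11.06 ± 0.01 and 8.44 ± 0.13 in wild type discs (SD). Relative to untreated wild type discs, agt differed by 1.36 in untreated dDP and -0.73 in untreated de2f1 discs, beside 1.46 and -0.48 for Corp.

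Nearest to Rchy1 were CG12868 (0.18), CG3008 (0.18), Irbp18 (0.20), which codes for a leucine zipper protein, Ku80 (0.23), which codes for the other Ku subunit, and CG3448 (0.26). The irradiation differences of Irbp18 were 1.67 ± 0.11 in dDP, 1.70 ± 0.11 in de2f1 and 2.00 ± 0.12 in wild type discs. Those of CG12868 were 1.59 ± 0.13, 1.69 ± 0.13 and 2.13 ± 0.14 in the same order. In these 5 genes the difference in de2f1 discs was below that in wild type discs, while that of Rchy1 was above it by 0.40, which was not called. Nearest to p53 was wnd, which codes for a kinase acting upstream of JNK (0.13), then CG12880 (0.14), MFS14 (0.14), CG18581 (0.15) and GstT1 (0.15), a glutathione transferase gene. The irradiation differences of wnd were 0.67 ± 0.07 in dDP, 0.77 ± 0.07 in de2f1 and 0.82 ± 0.08 in wild type discs. Those of CG18581 had wider errors, at 0.52 ± 0.40, 0.68 ± 0.40 and 0.86 ± 0.45. p53 itself was 0.95 from Corp and 0.64 from Rchy1. These distances are not scaled for the size of the changes. The root mean square of a member's own centred means was 0.40 for p53, 1.27 for Corp and 0.98 for Rchy1.

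**Figure D4:**
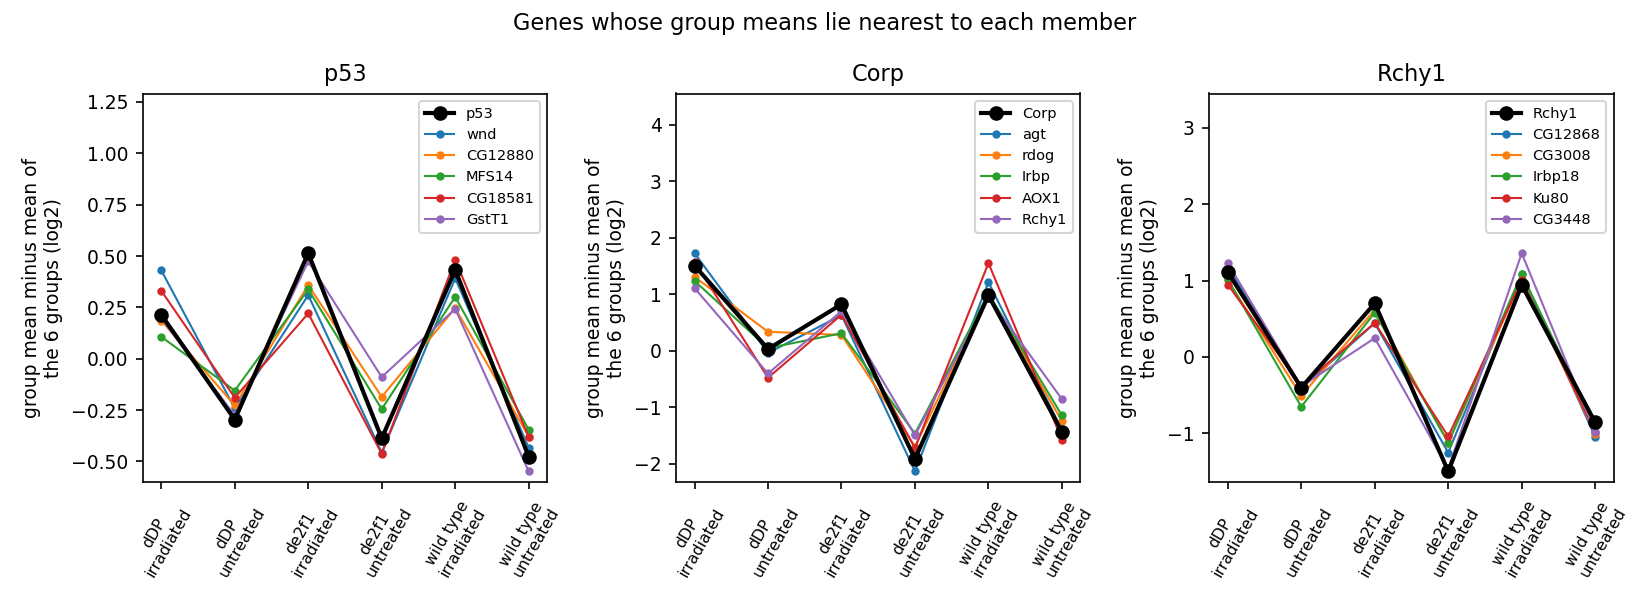
Group means of each member (black) and of the 5 genes nearest to it, each centred on its mean over the 6 groups (log2, vertical axes), with the groups along the horizontal axes. Corp and agt run together at a root mean square difference of 0.18, and p53 varies over a smaller range than Corp and Rchy1.

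Other genes of the pathway were read from lists that were chosen with earlier results of these data known. Of 14 genes listed here as p53 targets after radiation in flies 11 were measured (rpr, hid and Xrp1 were not analysed here). Whether p53 induced any of the 11 in these discs was not tested. The 11 rose in 9 cases in dDP, 9 in de2f1 and 8 in wild type discs and fell in none. Over all probe sets 4.45%, 1.37% and 2.59% rose. The median differences of the 11 were 0.87, 1.00 and 1.39, beside medians of -0.03, -0.0095 and -0.0028 over all probe sets. The TNF ligand gene egr rose by 1.59 ± 0.08 in dDP, 1.47 ± 0.08 in de2f1 and 1.79 ± 0.09 in wild type discs, and agt by 1.77 ± 0.11, 2.76 ± 0.11 and 2.62 ± 0.12 (limma adjusted p of 6.97e-09 to 5.17e-07). The nucleotide supply gene RnrL rose by 1.04 ± 0.06, 0.57 ± 0.06 and 0.83 ± 0.07 (adjusted p of 5.17e-07 to 1.38e-04). The death genes skl and grim, named after their values were seen, had differences from -0.20 to 0.45, none called (adjusted p of 0.144 to 0.997). The irradiation effect was smaller in dDP than in wild type discs for mre11 (-1.04 ± 0.12, adjusted p = 0.00172) and rad50 (-0.67 ± 0.10, adjusted p = 0.00993).

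In untreated dDP discs the same p53 target list was split. Of 11 genes 6 were higher and 2 lower than in wild type (12.1% of probe sets were higher and 15.9% lower). Their median was 0.17, beside -0.01 over all probe sets. Besides agt, the higher ones included the break repair genes mre11 (1.30 ± 0.08, limma adjusted p = 4.64e-08), rad50 (1.19 ± 0.07, adjusted p = 1.32e-08) and Irbp (1.19 ± 0.13, adjusted p = 6.63e-06). Ku80 was among them too (0.61, adjusted p = 0.00109), a call lost without untreated dDP arrays 2 and 3 (adjusted p = 0.0944). agt and Irbp are also among the genes nearest to Corp, and Ku80 among those nearest to Rchy1. The lower ones were gkt, which codes for a DNA end repair enzyme (-1.02, adjusted p = 8.5e-08), and Dark, which codes for the activator of the caspase Dronc (-0.39, adjusted p = 2.4e-04). gkt was named after its values were seen. In untreated de2f1 discs 2 of the 11 were higher (3.89% of probe sets) and 3 lower (5.1%), with a median of -0.08. The higher ones were mre11 (0.41, limma adjusted p = 0.00586), which was higher in untreated dDP discs too, and egr (0.41, adjusted p = 0.00595). The lower ones were gkt (-1.81, adjusted p = 8.76e-10), agt (-0.73, adjusted p = 5.51e-04) and RnrL (-0.23, adjusted p = 0.0371). The RnrL call was lost in 10 of 29 alternatives, among them those without any 1 wild type array, untreated de2f1 array 1 or 2 or irradiated de2f1 array 3 (adjusted p up to 0.141). These 2 comparisons share the untreated wild type arrays.

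Of 13 sensors and kinases upstream of p53, 12 were measured, of which 2 rose and 1 fell in dDP, 2 rose and 0 fell in de2f1, and 3 rose and 1 fell in wild type discs (limma, with 3, 6 and 6 of the 12 at an unadjusted p under 0.05). Over all probe sets 4.45% rose and 4.38% fell in dDP, 1.37% rose and 0.927% fell in de2f1, and 2.59% rose and 1.92% fell in wild type discs. The rises were those of mre11 and rad50, which belong to the target list too, and in wild type discs nbs, the partner in their complex (0.61 ± 0.15, limma adjusted p = 0.0319), a call lost without any 1 of the 5 wild type arrays (adjusted p up to 0.252). lok, the fly Chk2 kinase gene that acts directly on p53, fell by -0.32 ± 0.06 in both dDP and wild type discs (adjusted p = 0.00255 and 0.00681). Its fall in wild type discs was lost without irradiated array 1 or 3 (adjusted p up to 0.0864), and that in dDP discs in 3 of 29 alternatives (adjusted p up to 0.117), one of which left out untreated dDP arrays 2 and 3 together (-0.23, adjusted p = 0.104). In de2f1 discs it was -0.09 (adjusted p = 0.638). The kinase genes tefu, mei-41 and grp, named after their values were seen, had no called irradiation change (adjusted p of 0.133 to 0.792).

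Of 10 genes of the ubiquitin and SUMO machinery 7 were measured. At an unadjusted p under 0.05 limma had 5, 1 and 4 of the 7 changed in dDP, de2f1 and wild type discs. By adjusted p, 1 rose (4.45% of probe sets) and 1 fell (4.38%) in dDP discs. In de2f1 discs 0 changed (1.37% of probe sets rose and 0.927% fell), and in wild type discs 1 rose (2.59%) and 0 fell (1.92%). The riser was Ubc6, the fly relative of the Rad6 ubiquitin-conjugating enzyme, at 0.86 ± 0.11 in dDP and 0.72 ± 0.12 in wild type discs (adjusted p = 2.56e-04 and 0.00297), with 0.35 in de2f1 discs (adjusted p = 0.172). The rise in wild type discs was lost without irradiated wild type array 3 (adjusted p = 0.0857). Uba2, which codes for a subunit of the SUMO-activating enzyme, fell by -0.17 ± 0.04 in dDP discs (adjusted p = 0.0166). That call was lost in 8 of 29 alternatives (adjusted p up to 0.278), among them those without untreated or irradiated dDP array 2 or 3. Of 10 caspases, their activators and inhibitors 7 were measured. Of these 3 rose and 1 fell in dDP, 2 rose in de2f1 and 1 rose in wild type discs, beside the same shares of all probe sets. At an unadjusted p under 0.05 limma had 4, 2 and 3 of the 7 changed. Dronc, the initiator caspase gene, rose by 0.97 ± 0.06, 0.63 ± 0.06 and 0.75 ± 0.07 (adjusted p of 5.74e-07 to 3.32e-05). Dark belongs to the p53 target list too, so its rises are counted in both lists. It rose by 0.57 ± 0.06 in dDP and 0.27 ± 0.06 in de2f1 discs (adjusted p = 5.25e-05 and 0.03), and its difference in wild type discs was 0.24 (adjusted p = 0.0693). The call in de2f1 discs was lost in 8 of 29 alternatives, among them those without untreated de2f1 array 2 or 3 or any 1 irradiated de2f1 array (adjusted p up to 0.137). In dDP discs Bruce, which codes for a large inhibitor of apoptosis, rose by 0.67 ± 0.17 and the caspase gene Dredd fell by -0.19 ± 0.05 (adjusted p = 0.0232 and 0.023). The Bruce call was lost in 9 of 29 alternatives, among them those without untreated dDP array 2 or 3 or any 1 irradiated dDP array, and its difference was 0.12 without both of those untreated arrays (adjusted p = 0.724). The Dredd call was lost in 8, among them those without untreated or irradiated dDP array 2 or 3, and its difference was -0.11 without both untreated arrays (adjusted p = 0.461). Dronc was lower in untreated dDP than in untreated wild type discs by -0.87 ± 0.06 and in untreated de2f1 discs by -0.52 ± 0.06 (adjusted p = 1.2e-07 and 6.12e-05).

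**Figure D5:**
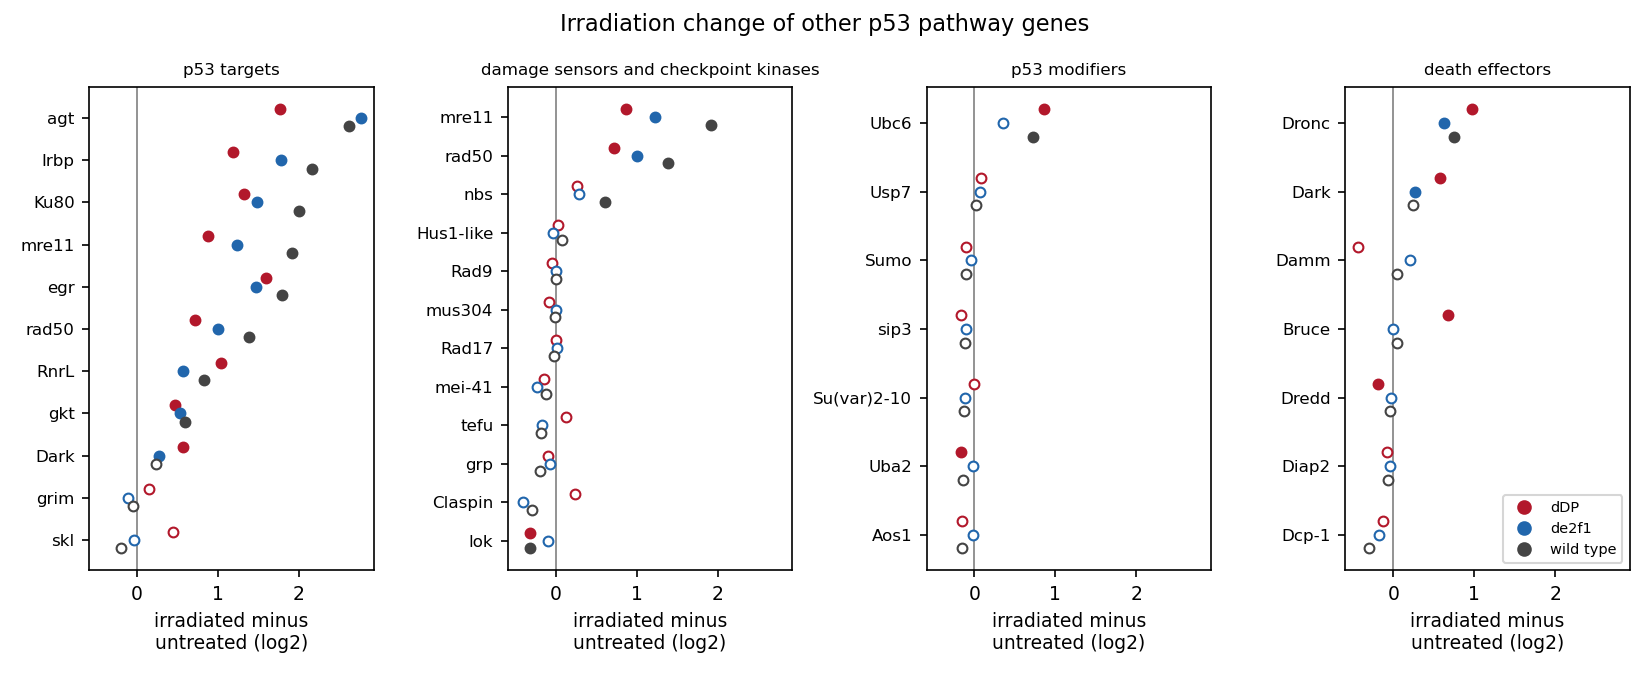
Irradiated minus untreated differences (log2, horizontal axes) of the measured genes of 4 pathway lists in dDP, de2f1 and wild type discs, filled where called. The p53 target panel has 9, 9 and 8 filled points of 11 in dDP, de2f1 and wild type discs, while most points of the other panels lie near 0.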

How the data were processed

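RNA of 17 samples, 50 ng each, was hybridised to Affymetrix Drosophila arrays, 1 per sample. The authors deposited log2 values per probe set, for which the submitters' processing notes name RMA (no version given). They were used unchanged. Of 18952 probe sets 183 controls were left out. Symbols came from the platform annotation, and the brightest probe set with 1 symbol stood for a gene. limma 3.58.1 (R 4.3.3) fitted 1 mean per group to the 17 arrays, with a plain empirical Bayes prior. Tables and figures were drawn with Python 3.11.15, pandas 2.3.3 and matplotlib 3.10.9. The code was tested on simulated data. The members and lists were chosen with earlier results of these data known. Named were the members, up to 5 called genes per pathway list with the smallest adjusted p, the 5 nearest genes per member and Dp. No sequences were used. The labels call the replicates biological. Each p-value sets a difference against the spread between these samples, with 1 estimate of spread per probe set shared by all groups. Same-numbered arrays deviated together (r over 0.1) in 7 of 40 pairs, so numbers were not taken as pairs. The number of arrays limits the precision.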

Additional observations from a re-analysis of the deposited data

Results flagged for a closer look

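The irradiation effect on Rchy1 differed between the mutants: the difference of effects, dDP minus de2f1, was -0.69 on the log2 scale, from rises of 1.51 ± 0.07 in dDP and 2.20 ± 0.07 in de2f1 discs (limma adjusted p = 0.0117, n = 3 in each of the 4 groups). All 3 irradiated arrays exceeded all 3 untreated arrays in both. The result was marked because the difference between the mutants itself passed the test. That call held in 26 of 29 alternatives, with limma adjusted p up to 0.0553.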

How the results depend on the processing

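The replicate block changed 1 call among the 3 genes, Corp in irradiated dDP against de2f1 discs (0.69, limma adjusted p = 0.0612). That call was also lost with a robust prior (0.69), quantile normalization (0.64) and the salivary covariate (0.70). Array weights gave 0.31 for the p53 rise in dDP discs, no longer called, and newly called p53 at 0.35 (untreated dDP against wild type), -0.34 (irradiated dDP against de2f1) and -0.56 (effect, dDP against de2f1), Corp effects at -1.17 (dDP against wild type) and -1.41 (dDP against de2f1), and Rchy1 at -0.25 (irradiated de2f1 against wild type). They raised the calls over all probe sets too. Called effects went from 22 to 1365 for dDP against de2f1 and from 38 to 433 for dDP against wild type. Called differences went from 5261 to 6551 (untreated dDP against wild type), 4870 to 5946 (irradiated dDP against de2f1) and 1619 to 2781 (irradiated de2f1 against wild type). With only the arrays of the contrast, calls were lost for the dDP rises of p53 (0.51) and Corp (1.48) and the Rchy1 effect, dDP against de2f1 (-0.69). The salivary covariate lost the p53 rise in dDP discs (0.46) and that Rchy1 effect (-0.68). The actin covariate turned p53 in untreated dDP discs to -0.051 against wild type and -0.12 against de2f1, and called Corp lower in untreated de2f1 than in wild type discs (-0.52). Without untreated dDP arrays 2 and 3 these p53 differences were -0.16 and -0.25, Corp in irradiated dDP against wild type discs was called (0.53), and GstT1 in untreated dDP against wild type turned to -0.021. Without untreated dDP array 1 and irradiated dDP array 2, a setting chosen after seeing the data, the p53 rise in dDP discs was 0.19 and not called. Those arrays were the lowest untreated and the highest irradiated dDP arrays for both p53 and Corp. Leaving them out had to raise the untreated dDP means and lower the dDP rises of both genes, so these values test nothing. In this setting the called effects of dDP against wild type went from 38 to 1175 over all probe sets. Newly called there were p53 in untreated dDP against wild type (0.35) and de2f1 (0.26), in irradiated dDP against wild type (-0.37) and de2f1 (-0.45), the p53 effects of dDP against wild type (-0.72) and de2f1 (-0.71), Corp in untreated de2f1 against wild type (-0.48), the Corp effects of dDP against wild type (-1.43) and de2f1 (-1.75), and Rchy1 in irradiated de2f1 against wild type (-0.24). The dimmer p53 probe set gave rises of 0.11 (dDP), 1.9e-04 (de2f1) and 0.10 (wild type), none called, and the opposite sign for untreated de2f1 against wild type (-0.0029), untreated dDP against wild type (-0.11) and de2f1 (-0.11), irradiated de2f1 against wild type (-0.10) and the effects of dDP against wild type (0.0099) and de2f1 (0.11).

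Leaving out 1 array gave 0.34 to 0.62 for the p53 rise in dDP discs, 0.078 to 0.35 and -0.011 to 0.26 for p53 in untreated dDP against wild type and de2f1, -0.45 to -0.19 in irradiated dDP against de2f1, -0.56 to -0.29 for the p53 effect of dDP against de2f1 and -0.052 to 0.034 for de2f1 against wild type. It gave 0.50 to 0.87 for Corp in irradiated dDP against de2f1, -1.24 to -0.67 and -1.57 to -0.99 for the Corp effects of dDP against wild type and de2f1, and -0.74 to -0.62 for the Rchy1 effect of dDP against de2f1. List counts moved as well, and so did the calls over all probe sets. For irradiation in dDP discs these went from 1659 to 1785 with a trended prior and 3851 with array weights. They fell to 242 with only the arrays of the contrast, 1122 with the actin covariate and 678 with the salivary covariate. In de2f1 discs the 431 calls became 268 to 1039 over all settings. In wild type discs the 846 became 1317 with array weights, 1109 with the actin covariate and 1004 without the dimmest probe sets. The p53 modifiers called in dDP discs (2) became 4 with a trended prior or array weights and 1 with only the arrays of the contrast, either covariate for actin or salivary gland, or without untreated dDP arrays 2 and 3, and 1 to 3 without 1 array. In de2f1 discs (0) they became 1 with the actin covariate, and in wild type discs (1) 2 with a trended prior or without the dimmest probe sets, and 0 to 1 without 1 array. The death effectors in dDP discs (4) became 2 with only the arrays of the contrast or the salivary covariate, and 2 to 4 without 1 array. In de2f1 discs (2) they became 1 under the replicate block, with only the arrays of the contrast or the salivary covariate, and 1 to 2 without 1 array. In wild type discs (1) they became 3 with array weights or without untreated dDP array 1 and irradiated dDP array 2, 2 without the dimmest probe sets, with the actin or fat body covariate or without untreated dDP arrays 2 and 3, and 1 to 2 without 1 array. The damage sensors in wild type discs (4) became 2 to 4 without 1 array. The causes were not tested.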
